A study of Mus musculus with 8 samples.

Results

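The genes described here lie near *Tet1* on mouse chromosome 10, and their RNA was measured in cells that lack TET1 and in their wild-type counterparts. They are *Slc25a16*, *Ccar1*, *Dna2*, *Rufy2*, *Hnrnph3*, *Ddx50*, *Ddx21*, *Vps26a*, *Adamts14* and *Sgpl1*, 10 of the 54281 genes in the expression tables, matched by gene symbol. They were picked with the KO and WT values of these same libraries in view, so the differences between KO and WT that follow are a description of those values and carry no test. Of the 10 genes, 8 lie within 320 kb of the annotated body of *Tet1*, while *Adamts14* and *Sgpl1* lie 1.53 and 1.66 Mb away.

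RNA-seq was performed in 4 *Tet1* knock-out (KO) and 4 wild-type (WT) lines of epiblast-like cells (EpiLCs), the formative state that mouse embryonic stem cells (ESCs) enter when moved to medium with basic fibroblast growth factor. The lines were KO1, KO9, KO15 and KO25, and WT7, WT12, WT17 and WT34. Each came from a male ESC line derived from blastocysts of the (B6 × 129S6)F1-Tet1tm1Koh background, the KO lines being homozygous for the tm1Koh allele and the WT lines their littermates, and each was harvested on day 2 of conversion in 12 ng/ml bFGF and 1% knock-out serum replacement. Which KO line was the littermate of which WT line is not given in the sources used here. Lines are named by their titles; the line titled WT12 is called WT9, and the line titled WT17 is called WT12, in a second label. Each line gave 1 library, so the spread between samples of a group is a spread between lines. The columns of the tables carry a suffix, b1 or b2, whose meaning the sources do not state. KO15, KO25, WT12 and WT34 carry b2, and KO1, KO9, WT7 and WT17 carry b1, so that each suffix holds 2 lines of each genotype.

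TET1 is a dioxygenase that oxidises 5-methylcytosine in DNA. A targeted allele is passed on together with the DNA around it, and where the strain that carried it differs from its partner strain, genes close to the target can differ between knock-out and wild-type siblings because of their own alleles. The genes around *Tet1* have no common function: they include a mitochondrial carrier, a DNA nuclease, RNA-binding proteins and helicases, endosomal proteins, a secreted protease and an enzyme of sphingolipid breakdown. In all 4 KO lines the absence of functional TET1 and the DNA that flanks the targeted allele come together, and the strain of the alleles around *Tet1* in each line is not given in the sources used here, so the flanking DNA and the loss of TET1 cannot be told apart in these data.

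The starts of 4 of these genes are shown because they frame what follows: *Sgpl1* and *Adamts14* are the farthest from *Tet1* and had the largest differences between KO and WT lines among the 10 genes, *Dna2* had the next largest, and *Slc25a16* is the nearest and its groups overlapped. Each sequence runs 5′ to 3′ on the gene's own strand from 250 bases before to 50 bases after the RefSeq start (GRCm38.p6), in lower case. Capitals mark GC boxes (GGGCGG or CCGCCC, the letters bound by SP-family factors) and matches to 2 further motifs that were searched, the palindrome bound by NRF1 (GCGCA followed directly by its reverse complement TGCGC) and the core bound by ETS factors (CCGGAA or TTCCGG). The *Sgpl1* window is chr10:61147635-61147934 on the minus strand, that of *Adamts14* is chr10:61273370-61273669 on the minus strand, that of *Dna2* is chr10:62946779-62947078 on the plus strand and that of *Slc25a16* is chr10:62920383-62920682 on the plus strand.
Sgpl1: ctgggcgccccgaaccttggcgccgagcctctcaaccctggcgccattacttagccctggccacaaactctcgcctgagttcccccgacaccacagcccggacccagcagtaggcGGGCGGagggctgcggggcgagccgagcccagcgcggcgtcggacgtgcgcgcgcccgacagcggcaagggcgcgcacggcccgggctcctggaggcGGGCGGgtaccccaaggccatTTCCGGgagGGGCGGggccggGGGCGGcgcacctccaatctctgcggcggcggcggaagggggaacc
Adamts14: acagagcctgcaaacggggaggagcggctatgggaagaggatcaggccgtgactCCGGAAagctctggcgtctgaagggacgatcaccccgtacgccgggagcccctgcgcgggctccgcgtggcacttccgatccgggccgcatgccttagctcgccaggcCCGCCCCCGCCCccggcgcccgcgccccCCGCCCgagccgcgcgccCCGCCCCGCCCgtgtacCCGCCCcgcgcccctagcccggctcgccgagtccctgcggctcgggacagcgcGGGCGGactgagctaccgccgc
Dna2: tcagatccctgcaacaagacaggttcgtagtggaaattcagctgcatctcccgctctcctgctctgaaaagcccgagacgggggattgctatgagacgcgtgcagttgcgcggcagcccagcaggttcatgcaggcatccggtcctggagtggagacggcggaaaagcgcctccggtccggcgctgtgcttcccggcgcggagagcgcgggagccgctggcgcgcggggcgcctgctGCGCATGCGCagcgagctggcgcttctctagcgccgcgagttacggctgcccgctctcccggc
Slc25a16: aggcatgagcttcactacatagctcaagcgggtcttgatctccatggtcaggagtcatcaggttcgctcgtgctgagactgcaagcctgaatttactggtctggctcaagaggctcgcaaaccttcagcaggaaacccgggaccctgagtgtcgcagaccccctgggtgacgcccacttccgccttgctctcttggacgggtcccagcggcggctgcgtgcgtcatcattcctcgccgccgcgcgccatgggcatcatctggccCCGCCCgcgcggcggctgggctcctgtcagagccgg

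All 10 genes were matched to a RefSeq start, with 12 starts in all since *Ddx50* and *Vps26a* have 2 each. The *Sgpl1* window held 38 CpG dinucleotides and 4 GC boxes, and the *Adamts14* window 44 CpGs and 7 GC boxes. These CpG counts are at percentiles 95.6 and 98.1 of the 32851 mouse windows of the same length, whose median was 7. The *Dna2* window held 35 CpGs and the NRF1 palindrome, which was present in 0.971% of all windows and in none of the other starts of these genes. The *Slc25a16* window held 24 CpGs and 1 GC box, and a GC box was present in 35.7% of all windows. The 12 starts ranged between 7 and 44 CpGs. The ETS core was present 2 times at 1 start of *Ddx50*, once each in the *Sgpl1* and *Adamts14* windows, and in 14.9% of all windows. An E-box (CACGTG, in 7.15% of all windows) was present at *Ccar1* and *Vps26a*, and a CCAAT box (CCAAT or ATTGG, in 37.4%) at *Ddx50* and *Sgpl1*, and neither is in capitals. Motifs were counted on both strands, with overlapping GC boxes each counted, and a match describes letters, not a bound site.

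*Tet1* itself was checked first. On the count scale *Tet1* (chromosome 10, 62804570 to 62908996, minus strand) had 45.3 CPM (counts scaled to a common library total) in KO1, 38.4 in KO9, 53.5 in KO15 and 54.2 in KO25, against 816 CPM in WT7, 559 in WT12, 775 in WT17 and 851 in WT34. The lowest WT line was far above the highest KO line, in accord with all 8 labels. The log2 fold change of KO over WT was −3.97 (SE 0.17, adjusted p = 2.09e-05, edgeR quasi-likelihood test with Benjamini-Hochberg adjustment over 17272 genes). Because the remaining KO reads were assigned to shorter transcripts, the difference was smaller in TPM, which also corrects for transcript length, at 26.8 ± 5.43 TPM across KO lines, against 81.2 ± 14.2 TPM across WT lines (SD, n = 4 each).

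Libraries held 13916576 to 20917851 estimated counts in the KO lines and 14771499 to 23680839 in the WT lines. The lines carried the formative markers *Pou5f1*, *Dnmt3b*, *Otx2* and *Fgf5*, whose means over all 8 lines were 457, 248, 22.5 and 11.6 TPM, and 4 naive ESC markers summed to 22.2 to 24.7 TPM in KO and 12.3 to 29.6 TPM in WT lines. Summed primitive endoderm markers stood at 1.73 to 3.82 TPM in KO and 2.26 to 4.26 TPM in WT lines, with *Gata6*, *Sox17* and *Sox7* below 0.2 TPM on average. Summed feeder fibroblast markers stood at 11 to 29.8 TPM in KO and 5.38 to 20.3 TPM in WT lines, mostly from *Thy1* (mean 15.6 TPM), while *Col1a1* and *Col1a2* averaged 0.227 and 0.109 TPM. Two-cell-like markers summed to at most 0.168 TPM in KO and 1.14 TPM in WT lines. The ranges of the summed TPM overlapped between KO and WT lines in each of these lists, and no marker passed an adjusted p of 0.05. Single markers had positive log2 fold changes in 4 of 4 tested formative, 3 of 4 naive, 4 of 4 primitive endoderm and 2 of 4 feeder genes. The primitive endoderm median was 0.49, against −0.00 over all genes, at these low levels. In that list 1 marker had all KO lines above all WT lines, against 2.39% of all genes.

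Corrected for length, the 10 genes spanned a wide range of levels. *Ddx21* was highest at 79.0 ± 18.5 TPM over the 8 lines (SD, n = 8), and its lowest line was above the highest line of the next gene. *Ccar1* (34.6 ± 2.44 TPM), *Hnrnph3* (34.2 ± 4.34), *Sgpl1* (29.3 ± 8.53), *Vps26a* (22.9 ± 3.56) and *Ddx50* (21 ± 2.48) followed, and in this run each gene's lines overlapped those of its neighbours in the order. *Rufy2* (9.92 ± 1.98 TPM) and *Dna2* (7.11 ± 0.957 TPM) overlapped one another but not *Ddx50* above or *Slc25a16* (3.49 ± 0.977 TPM) below. *Adamts14* was lowest, at 0.419 ± 0.110 TPM, and rested on 67.4 to 142 estimated counts per library.

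**Figure D1:**
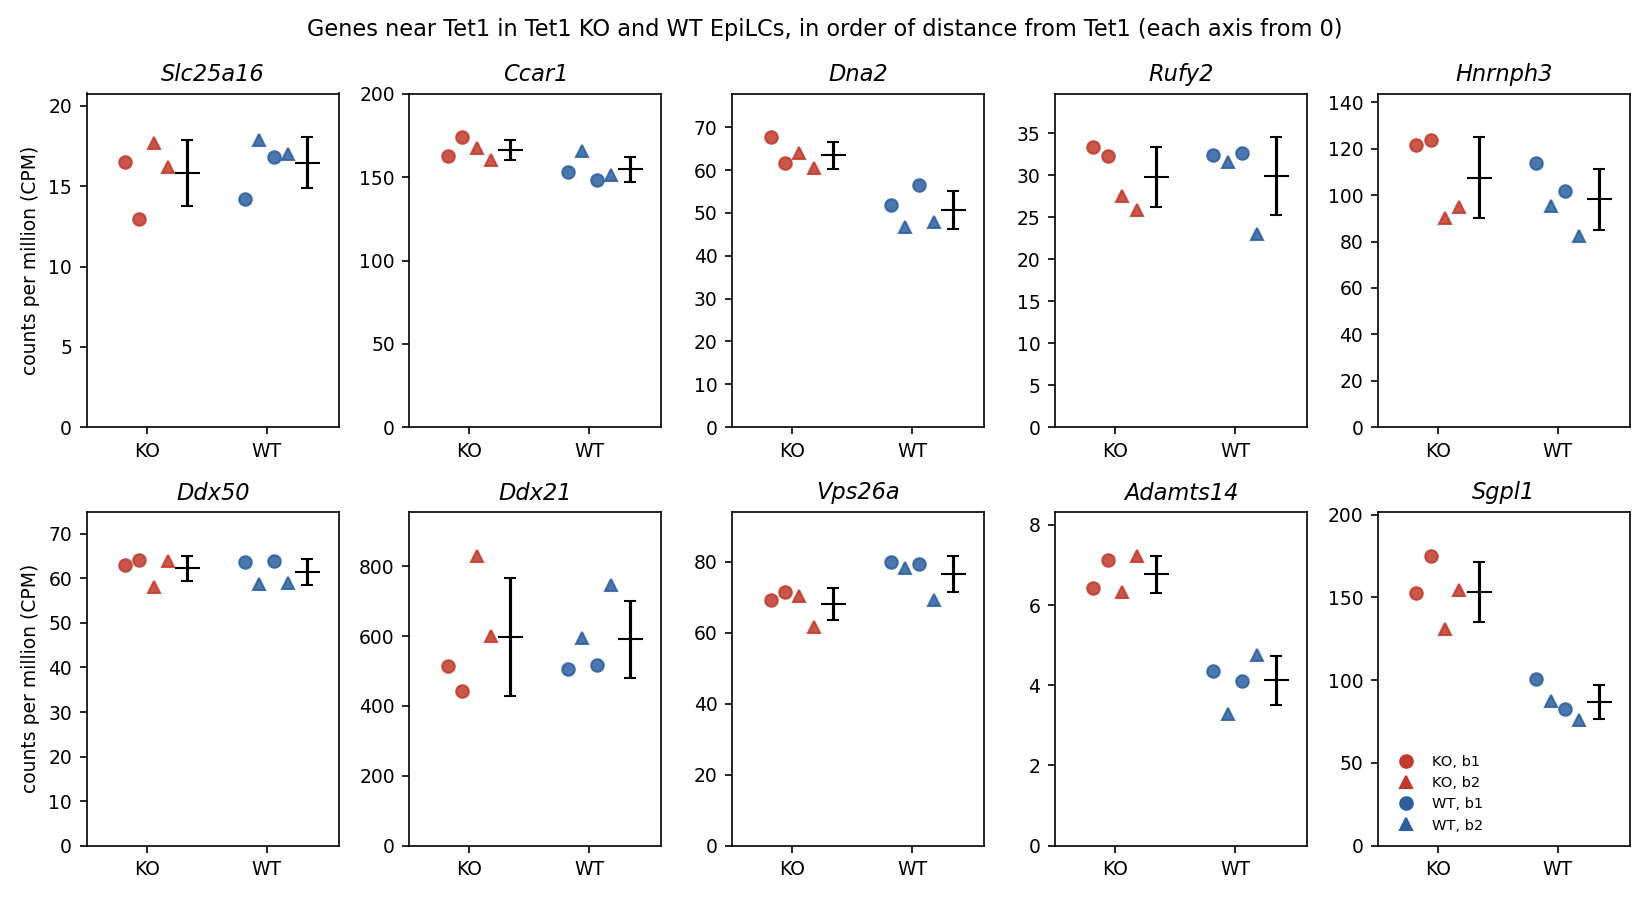
CPM (vertical axes, each starting at 0) of the 10 genes in each KO line (red, left) and WT line (blue, right), ordered by distance from *Tet1*, with circles for b1 lines and triangles for b2 lines; black bars give the mean and SD of 4 lines. *Dna2*, *Adamts14* and *Sgpl1* are the genes whose 4 KO lines all lie above their 4 WT lines, and *Ddx21*, *Rufy2* and *Hnrnph3* separate by b1 and b2.

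The largest differences were at the 2 distant genes. *Sgpl1* encodes sphingosine-1-phosphate lyase, which irreversibly cleaves sphingosine-1-phosphate and so ends sphingolipid breakdown. *Sgpl1* (chromosome 10, 61098642 to 61147703, minus strand) had 153 CPM in KO1, 175 in KO9, 131 in KO15 and 155 in KO25, against 101 CPM in WT7, 87.5 in WT12, 82.5 in WT17 and 76.0 in WT34. All 4 KO lines were above all 4 WT lines, and the lowest KO line was 1.3 times the highest WT line. The KO lines averaged 153 ± 18.3 CPM and the WT lines 86.7 ± 10.4 CPM (SD, n = 4 each), a log2 fold change of 0.82 (SE 0.12) or 1.77-fold. It was 0.81 within b2 and 0.84 within b1, and between 0.75 and 0.90 when any 1 line was left out. The groups also did not overlap in TPM, with 36.2 ± 5.76 TPM across KO lines, against 22.4 ± 3.27 TPM across WT lines (SD, n = 4 each).

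*Adamts14*, a secreted metalloprotease that removes the amino-terminal propeptide of fibrillar procollagens, lies 49.4 kb from *Sgpl1* on the side of *Tet1*. *Adamts14* (chromosome 10, 61197112 to 61273438, minus strand) had 6.42 CPM in KO1, 7.12 in KO9, 6.33 in KO15 and 7.22 in KO25, against 4.34 CPM in WT7, 3.29 in WT12, 4.10 in WT17 and 4.74 in WT34. Again every KO line was above every WT line. The KO lines averaged 6.77 ± 0.461 CPM and the WT lines 4.12 ± 0.611 CPM (SD, n = 4 each), a log2 fold change of 0.72 (SE 0.17), with 0.77 within b2, 0.68 within b1 and 0.62 to 0.79 without any 1 line. In TPM it was at 0.494 to 0.549 in KO and 0.260 to 0.346 in WT lines, so that a 1.62-fold ratio of means stood on a low level.

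*Dna2* encodes a nuclease and helicase that trims long flaps of Okazaki fragments and resects broken DNA ends, and it was the third gene whose groups did not overlap in CPM. *Dna2* (chromosome 10, 62947026 to 62974185, plus strand, 38.0 kb from *Tet1*) had 67.7 CPM in KO1, 61.8 in KO9, 64.1 in KO15 and 60.5 in KO25, against 52.0 CPM in WT7, 46.6 in WT12, 56.5 in WT17 and 47.9 in WT34. Its KO lines were close together and above each WT line, but by less than for the distant pair of genes. The log2 fold change was 0.32 (SE 0.09), with 0.40 within b2, 0.25 within b1 and 0.28 to 0.38 without any 1 line. In TPM the groups overlapped, since KO25 with 6.87 TPM was below WT17 with 7.30 TPM.

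The other 7 genes had overlapping groups in CPM, and log2 fold changes between −0.17 and 0.13. *Slc25a16*, a mitochondrial carrier linked to coenzyme A transport, starts only 11.6 kb from *Tet1* (chromosome 10, 62920633 to 62946498, plus strand) and ends 527 bases before *Dna2*. *Slc25a16* had 16.5 CPM in KO1, 12.9 in KO9, 17.7 in KO15 and 16.2 in KO25, against 14.2 CPM in WT7, 17.9 in WT12, 16.8 in WT17 and 17 in WT34. The groups covered almost the same range, with a log2 fold change of −0.06 (SE 0.14). On the other side of *Tet1*, *Ccar1* encodes a transcriptional coactivator of cell-cycle and apoptosis genes and lies 12.3 kb away (chromosome 10, 62743928 to 62792286, minus strand). *Ccar1* had 163 CPM in KO1, 174 in KO9, 168 in KO15 and 160 in KO25, against 153 CPM in WT7, 166 in WT12, 149 in WT17 and 151 in WT34. One WT line, WT12, was within the KO range, and the log2 fold change was 0.10 (SE 0.07). *Ccar1* shares 1431 bases with *Gm48146*, a gene model on the same strand, so some reads could belong to either.

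*Rufy2* and *Hnrnph3* lie 71.2 and 105.7 kb from *Tet1* and point toward each other, overlapping by 2547 bases at their 3′ ends (chromosome 10, 62980223 to 63017210, plus strand, and 63014664 to 63024217, minus strand). The strand setting of the authors' quantification is not given in the sources used here, so reads from the shared bases are uncertain. *Rufy2* encodes a RUN and FYVE domain protein of endosomes. It had 33.3 CPM in KO1, 32.3 in KO9, 27.6 in KO15 and 25.9 in KO25, against 32.4 CPM in WT7, 31.6 in WT12, 32.6 in WT17 and 23 in WT34. The group ranges overlapped, with a log2 fold change of −0.01 (SE 0.14). *Hnrnph3*, a nuclear ribonucleoprotein of the H/F family that binds RNA in splicing, had 121 CPM in KO1, 124 in KO9, 90.1 in KO15 and 95.0 in KO25, against 114 CPM in WT7, 95.3 in WT12, 102 in WT17 and 82.3 in WT34. Here too the groups overlapped, with a log2 fold change of 0.13 (SE 0.14).

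*Ddx50* and *Ddx21* are neighbouring paralogues that encode nucleolar DEAD-box RNA helicases, 153 and 202 kb from *Tet1* (chromosome 10, 62615895 to 62651218 and 62580251 to 62602281, both on the minus strand). *Ddx50* had 63.1 CPM in KO1, 64.1 in KO9, 58.1 in KO15 and 64.0 in KO25, against 63.8 CPM in WT7, 58.8 in WT12, 64.0 in WT17 and 58.9 in WT34. It was the most even of the 10 genes between groups apart from *Ddx21* and *Rufy2*, with a log2 fold change of 0.02 (SE 0.08). *Ddx21* had 515 CPM in KO1, 442 in KO9, 831 in KO15 and 599 in KO25, against 506 CPM in WT7, 596 in WT12, 517 in WT17 and 746 in WT34. Its log2 fold change was 0.01 (SE 0.20), with a spread inside each genotype that followed the column suffix. *Vps26a*, a subunit of the retromer that returns membrane proteins from endosomes, lies 318 kb from *Tet1* (chromosome 10, 62455235 to 62486805, minus strand). It had 69.3 CPM in KO1, 71.6 in KO9, 70.3 in KO15 and 61.5 in KO25, against 79.9 CPM in WT7, 78.3 in WT12, 79.4 in WT17 and 69.1 in WT34. In *Vps26a* only WT34 reached the KO range, and the log2 fold change was −0.17 (SE 0.09).

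**Figure D2:**
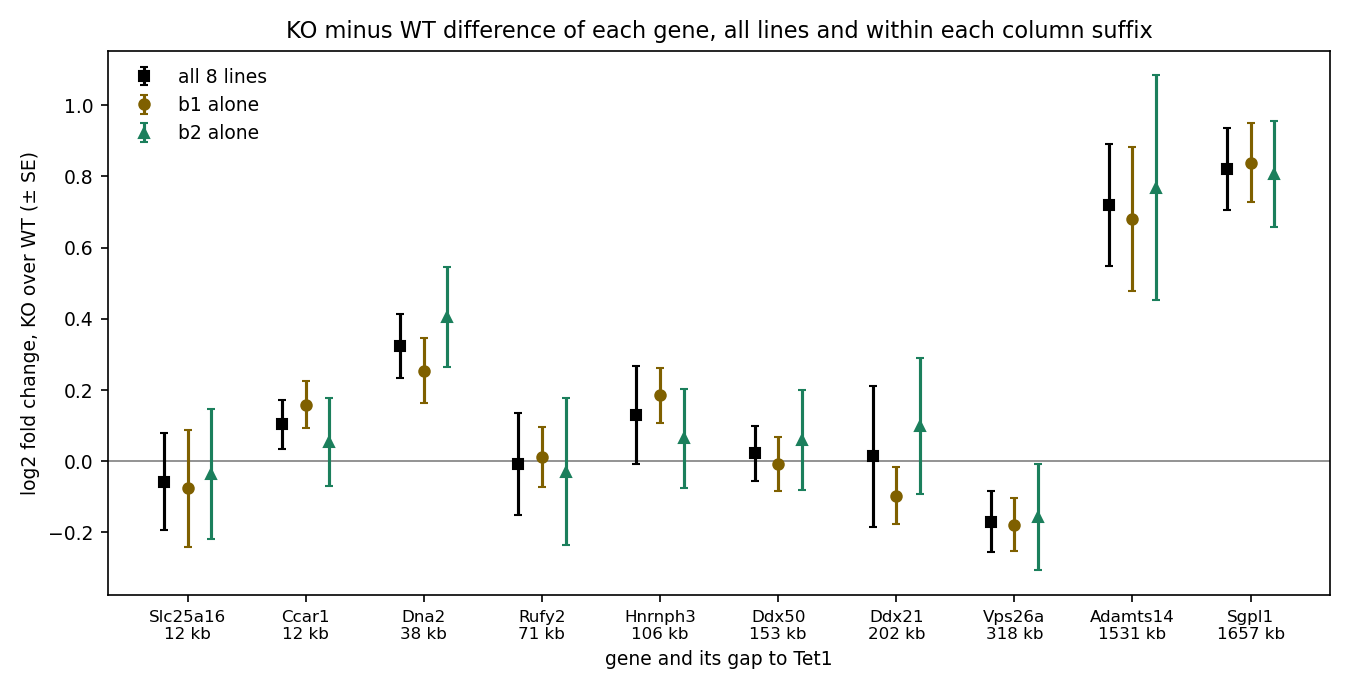
Log2 fold change of KO over WT (vertical axis, bars ± SE) for the 10 genes in order of their gap to *Tet1* in kb, from all 8 lines (black squares), b1 lines alone (brown circles) and b2 lines alone (green triangles). *Adamts14* and *Sgpl1* lie between 0.68 and 0.84 in all 3 fits, *Dna2* between 0.25 and 0.40, and the other 7 genes lie closer to 0.

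Over the 10 genes, 3 had all KO lines above all WT lines and none had all KO lines below. Of the 17272 genes tested, 2.39% had all KO lines above, 1.8% had all KO lines below, and 4.19% had either. The edgeR quasi-likelihood test called 0 of the 10 genes for genotype at an adjusted p of 0.05 (background 0.0405% of genes), and 3 of 10 (*Sgpl1*, *Adamts14* and *Dna2*) at an unadjusted p of 0.05 (background 5.62%). With the column suffix as a block it called 1 of 10, *Sgpl1* (background 0.162%). DESeq2 called 2 of 10, *Sgpl1* and *Adamts14* (background 0.376%), and with the suffix block, an alternative chosen after seeing the data, 3 of 10 with *Dna2* added (background 1.68%). Without a filter on low counts edgeR called 1 of 10, *Sgpl1* (background 0.0228%), and limma on log2(TPM + 1), where *Adamts14* was too low to be tested, called none (background 0.0145%). Because the genes were chosen on this contrast, nothing is read from these counts against their backgrounds. The median log2 fold change was 0.06 over the 10 genes and −0.00 over all genes, and 3.07%, 4.44% and 20.4% of all genes had a difference at least as large in size as that of *Sgpl1*, *Adamts14* and *Dna2*.

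The direction of the difference was the same within b2 and within b1 in 7 of the 10 genes. The exceptions were *Rufy2*, *Ddx50* and *Ddx21*, whose differences were close to 0. The KO effect in b2 minus that in b1 ranged between −0.13 and 0.19 on the log2 scale over the 10 genes, with SEs of 0.13 to 0.35. The choice of the genes drew on the values within each suffix, so this difference is given without a test.

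The column suffix itself was fitted with genotype in the model, a contrast other than the KO and WT difference on which the genes were chosen. The values within each suffix were also in view at that choice, so the p-values that follow are descriptive. Of the 10 genes, 2 passed an adjusted p of 0.05 in edgeR, against 24.6% of all genes tested, and the same 2 in DESeq2 (background 22.4%). *Ddx21* rose in b2, with KO15 and KO25 at 831 and 599 CPM and WT12 and WT34 at 596 and 746 CPM, against 515 and 442 CPM in KO1 and KO9 and 506 and 517 CPM in WT7 and WT17. All 4 b2 lines were above all 4 b1 lines. The log2 difference of b2 over b1 was 0.49 (SE 0.11, adjusted p = 0.0136, edgeR), and without KO9 the adjusted p was 0.0600. *Hnrnph3* fell in b2, with KO15 and KO25 at 90.1 and 95.0 CPM and WT12 and WT34 at 95.3 and 82.3 CPM, against 121 and 124 CPM in KO1 and KO9 and 114 and 102 CPM in WT7 and WT17. The log2 difference was −0.34 (SE 0.07, adjusted p = 0.00830, edgeR). *Rufy2*, its convergent neighbour, also had all 4 b2 lines below all b1 lines, but its log2 difference of −0.27 (SE 0.10) had an adjusted p of 0.0795 in edgeR. Without WT12 that adjusted p was 0.00865.

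For *Sgpl1* and *Adamts14* the b2 and b1 lines overlapped. Their log2 differences of b2 over b1 were −0.18 (SE 0.09, adjusted p = 0.181, edgeR) and −0.04 (SE 0.16, adjusted p = 0.884, edgeR). For *Dna2* it was −0.13 (SE 0.07, adjusted p = 0.224, edgeR). The other 4 genes ranged between −0.10 and 0.19, and their adjusted p-values were at least 0.253 in edgeR. Thus 3 of the 10 genes had b2 and b1 lines that did not overlap, against 26.3% of all genes tested.

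Estimated counts and TPM of a gene can be compared line by line, since their ratio gives the effective length of the transcripts to which its reads were assigned, set here to 1 at the median of the 8 lines. *Tet1* had 0.330 ± 0.0257 across KO lines, against 1.73 ± 0.0899 across WT lines (SD, n = 4 each). None of the 10 genes had KO and WT lines that did not overlap in this relative length, against 1.96% of the 11246 genes with at least 50 counts in every line. For *Sgpl1* the KO lines averaged 1.05 ± 0.0649 and the WT lines 0.976 ± 0.0408, for *Adamts14* 0.985 ± 0.0252 over KO and 0.986 ± 0.0441 over WT lines, and for *Dna2* 1.03 ± 0.0665 over KO and 1.00 ± 0.0307 over WT lines (SD, n = 4 each). The relative length varied by 1.5-fold or more between the highest and lowest line in 2 of the 10 genes, *Rufy2* and *Slc25a16*, and in 23.1% of the background. *Rufy2* had 1.04 in KO1, 1.75 in KO9, 1.07 in KO15 and 0.681 in KO25, against 0.905 in WT7, 0.967 in WT12, 1.03 in WT17 and 0.717 in WT34. KO9 was thus high and KO25 and WT34 low, which is why *Rufy2* ranged more widely in TPM (5.92 to 12.1 in KO and 9.94 to 11.1 TPM in WT lines) than in CPM among KO lines. *Slc25a16* fell into low lines (KO9, KO15 and WT17, at 0.723, 0.713 and 0.651) and lines of 0.885 or more, with both genotypes in each.

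**Figure D3:**
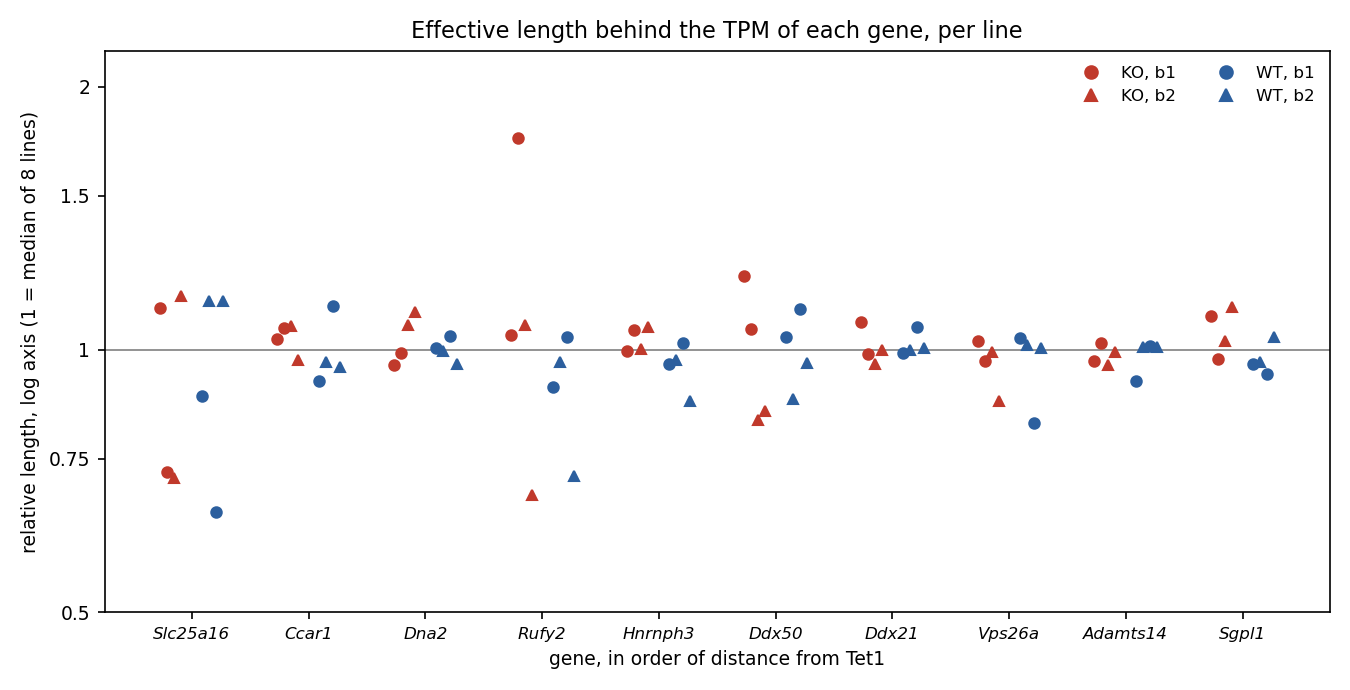
Relative effective length (vertical log axis, 1 at the median of the 8 lines) of each gene in KO lines (red, left) and WT lines (blue, right), with circles for b1 and triangles for b2. KO and WT lines overlap in all 10 genes, and the widest spread is that of *Rufy2*, between 0.681 in KO25 and 1.75 in KO9.

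To set the 10 genes beside the rest of their region, all 40 tested genes with a gap of at most 2 Mb to *Tet1* were taken, 30 of them other genes. No gene of the window passed an adjusted p of 0.05 in edgeR, against 0.0405% of all genes, and 4 of 40 had an unadjusted p below 0.05, against 5.62% of all genes. Those 4 include *Sgpl1*, *Adamts14* and *Dna2*, and without the 10 genes it was 1 of 30, *Gm48353*, which lies inside *Tet1* itself. DESeq2, whose own filter kept 59 genes of the window, called 3 of them, *Sgpl1*, *Adamts14* and *Gm48353*, against 0.376% of all genes, and 1 of 49 without the 10 genes. With the suffix block edgeR called 2 of 40, *Sgpl1* and *Nodal* (background 0.162%), and 1 of 30 without the 10 genes. DESeq2 with the block, chosen after seeing the data, called 5 of 40 (background 1.68%), and 2 of 30 without the 10 genes. Nothing is read from window counts that include the 10 chosen genes. The median log2 fold change of the window was 0.06, and 34 of 40 genes were within 0.35 of 0. The 18 tested genes within 500 kb that do not overlap *Tet1* ranged between −0.26 and 0.32. The 18 tested genes between *Vps26a* and *Adamts14* ranged between −0.88 and 0.55 with a median of 0.15, so that *Sgpl1* and *Adamts14* were above each of them. The tested genes on either side of the pair were *Pcbd1* beyond *Sgpl1* and *Pald1* on the side of *Tet1*. They were picked for their place, but after their values were seen. *Pcbd1*, at only 34 to 102 estimated counts per library, had a log2 fold change of −0.30 (SE 0.30), and *Pald1* 0.03 (SE 0.19). Without the block, the edgeR test called none of the 23, 68 and 103 tested genes within 1, 5 and 10 Mb, and 1 of the 713 genes of chromosome 10 beyond 10 Mb.

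Of the other 30 genes, *Gm48353* had the largest difference in size and was singled out after its values were seen. It lies inside *Tet1* on the same strand (chromosome 10, 62858124 to 62859994). *Gm48353* had 0.0937 CPM in KO1, 0.301 in KO9, 0.208 in KO15 and 0.219 in KO25, against 0.935 CPM in WT7, 1.17 in WT12, 2.68 in WT17 and 1.77 in WT34, so that its KO lines were all below its WT lines like those of *Tet1*. These values rested on only 2 to 57 estimated counts per library, and the reads could belong to either *Gm48353* or *Tet1*. *Nodal*, a TGF-β family ligand of the early embryo 1379 kb from *Tet1*, had 6.98 CPM in KO1, 5.91 in KO9, 25.4 in KO15 and 22.0 in KO25, against 12.2 CPM in WT7, 48.8 in WT12, 9.98 in WT17 and 39.2 in WT34. Within each suffix both KO lines were below both WT lines, and the log2 fold change was −0.88 (SE 0.62, adjusted p = 0.998, edgeR) and −0.84 with the suffix block (SE 0.12, adjusted p = 0.0326, edgeR).

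**Figure D4:**
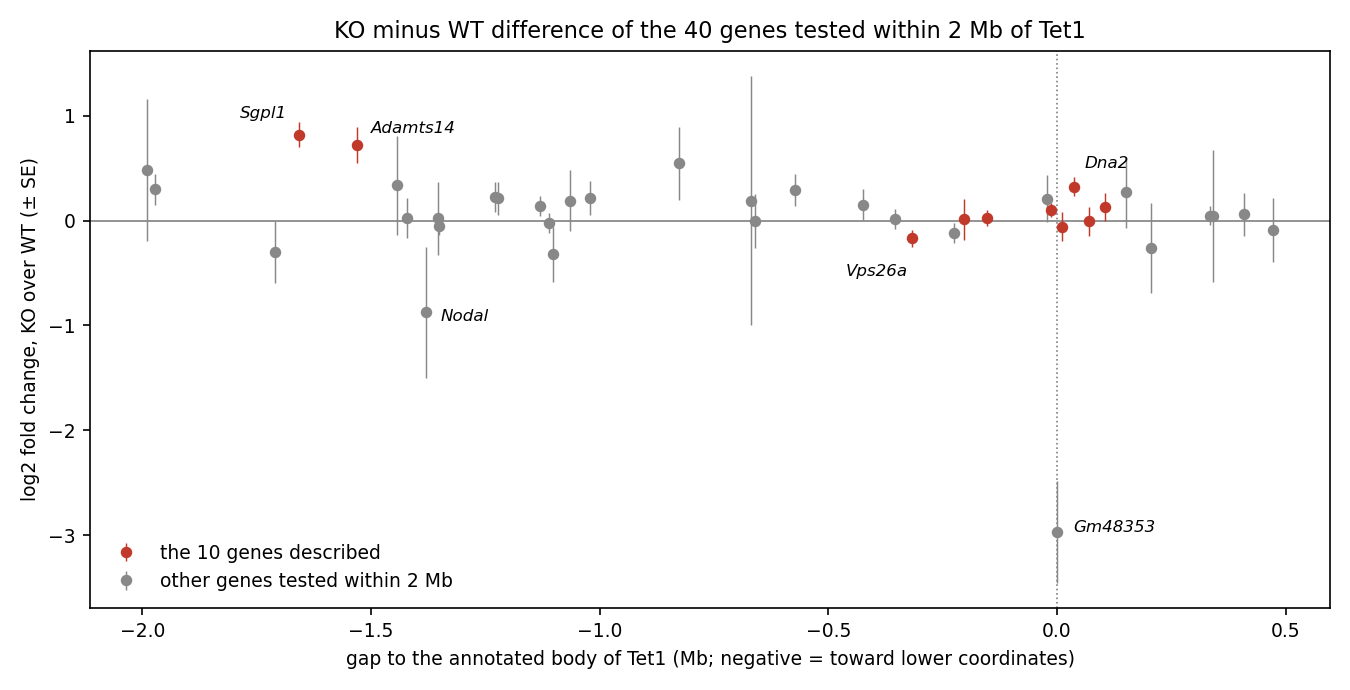
Log2 fold change of KO over WT (vertical axis, bars ± SE) of the 40 tested genes within 2 Mb, against their gap to the body of *Tet1* in Mb (horizontal axis, negative toward lower coordinates), with the 10 genes in red and the other 30 in grey. *Sgpl1* (0.82) and *Adamts14* (0.72) stand above their neighbours at the far left, and *Gm48353* (−2.97) lies inside *Tet1*.

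Genes of the same families or pathways as these 10 were described from 9 lists of 118 genes, of which 113 were tested. No list gene passed an adjusted p of 0.05 for genotype in edgeR, with or without the suffix block. Without the block 8 of the 113 had an unadjusted p below 0.05, against 5.62% of all genes. Across the 24 tested genes of sphingolipid and sphingosine-1-phosphate metabolism, which hold the kinases and phosphatases that act beside *Sgpl1*, the median log2 fold change was 0.05. The smallest p-values in this list were those of *Sgpp2*, a sphingosine-1-phosphate phosphatase, at 1.56 ± 0.441 CPM across KO lines, against 0.531 ± 0.300 CPM across WT lines, and *Cers6*, a ceramide synthase, at 64.3 ± 6.80 CPM across KO lines, against 50.1 ± 7.25 CPM across WT lines (SD, n = 4 each). Their adjusted p-values were 0.579 and 0.777 in edgeR.

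Across the 10 tested genes of fibrillar procollagen processing the median was −0.09, and 3 had an unadjusted p below 0.05, against 5.62% of all genes. The lists were chosen with earlier results of these data known, so nothing is read from this count. *Col5a1*, a chain of type V collagen, had 21.7 CPM in KO1, 21.3 in KO9, 20.0 in KO15 and 19.5 in KO25, against 9.46 CPM in WT7, 14.3 in WT12, 10.5 in WT17 and 9.77 in WT34. All KO lines were above all WT lines, and the log2 fold change was 0.90 (SE 0.15, adjusted p = 0.163, edgeR). DESeq2 called *Col5a1* and no other gene of the 9 lists (background 0.376%). *Bmp1*, which cleaves the carboxy-terminal propeptides of the same procollagens, had 4.05 ± 0.644 CPM across KO lines, against 2.43 ± 0.165 CPM across WT lines (SD, n = 4 each; adjusted p = 0.546, edgeR).

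Across 17 genes of end resection and Okazaki fragment processing, the pathways of *Dna2*, the median was −0.04 and none had an unadjusted p below 0.05. *Fen1*, the short-flap nuclease, had a log2 fold change of −0.20, and *Blm*, a helicase of end resection, −0.10. The medians were −0.01 over 8 genes of coenzyme A synthesis and transport, 0.01 over 15 hnRNP genes, −0.05 over 12 nucleolar DEAD-box genes, 0.06 over 10 retromer and sorting nexin genes, 0.08 over 9 RUFY and endosomal Rab genes and 0.01 over 8 CCAR1 partners. The genes with the smallest p in those lists were *Slc25a42* (−0.29) and *Ppcdc* (0.18), *Grsf1* (0.22) and *Hnrnpr* (−0.23), *Ddx31* (0.20) and *Ddx47* (0.16), *Vps26b* (0.15) and *Snx1* (−0.25), *Rab4a* (0.14) and *Rab11a* (0.17), and *Ncoa1* (0.29) and *Calcoco1* (−0.21), each given as a log2 fold change of KO over WT. For the suffix, edgeR called 6 of 12 nucleolar DEAD-box genes, 5 of 15 hnRNP genes, 6 of 10 retromer genes, 6 of 8 coenzyme A genes and 4 of 17 resection genes between b2 and b1, against 24.6% of all genes. It called 4 of 24 sphingolipid genes, 2 of 9 RUFY and endosomal Rab genes, 1 of 8 CCAR1 partners and 0 of 10 procollagen genes.

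For the 3 genes whose KO and WT lines did not overlap, the genes with the most similar profile over the 8 lines were found among 15146 genes with a mean of at least 1 CPM outside the 2 Mb window. These are descriptions over 8 lines that share genotype and suffix. Taking the highest r among so many genes over so few lines makes it high by selection, so its size carries no test. For *Sgpl1* they were *Sptb* (Pearson r = 0.987), *Camk2n1* (0.980) and *Evpl* (0.979). For *Adamts14* they were *Kit* (r = 0.986), *Gdi2* (0.976) and *Chek1* (0.976), and for *Dna2* they were *St3gal4* (r = 0.967), *Sfrp1* (0.962) and *Gpc4* (0.958). *Sptb* averaged 116 CPM over KO and 71.9 CPM over WT lines, and *Kit* 45.0 CPM over KO and 27.8 CPM over WT lines.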

How the data were processed

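RNA was prepared from 8 EpiLC lines with a stranded mRNA kit and sequenced as single reads. Reads were trimmed with Trim Galore 0.6.4 and quantified with Salmon 0.14.1 on a GENCODE mouse transcriptome (mm10), and transcripts were summed to genes; the authors deposited estimated counts and TPM per gene and line. The deposited estimated counts were not normalized, and 27.8% of values changed when rounded to whole numbers. TPM, as the authors deposited them, correct for transcript length and library size. The number of table columns belonging to no sample here was 0.

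Genes were filtered with filterByExpr and tested in R 4.3.3 with edgeR 4.0.16 (TMM normalization, quasi-likelihood test, Benjamini-Hochberg adjustment over 17272 genes, threshold 0.05); CPM use the TMM library sizes. KO and WT were compared over all 8 lines without covariates, b2 and b1 with genotype in the model, and the difference of the KO effects between the 2 suffixes was estimated as an interaction term. DESeq2 1.42.0, limma 3.58.1 on log2(TPM + 1), other scalings and filters, the suffix as a block, each suffix alone and leaving out each line were alternatives. The fits were tested on simulated data. Coordinates are 1-based on mm10, from GENCODE release M21, where 53544 of 54281 IDs matched with their version; the promoter windows and coordinates come from RefSeq on GRCm38.p6. Titles gave the line names. p-values measure the spread between lines; culture and library spread cannot be separated from it.

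The 10 genes and the gene lists were chosen with earlier results of these data known. Named were the 10 genes and *Tet1*, other genes within 2 Mb called with or without the suffix block, the 2 genes with the smallest p in each list, the 3 genes most like each gene whose groups did not overlap, and the markers. *Gm48353*, *Pcbd1* and *Pald1* were added after their values were seen.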

Additional observations from a re-analysis of the deposited data

Results flagged for a closer look

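In 3 of 22 groups of 4 lines, 1 line was far from the other 3: its gap to the nearest line, divided by the range of the group, passed Dixon's critical value, which chance passes in about 1 in 20 groups. *Rufy2* had 23 CPM in WT34, against 31.6 to 32.6 CPM in the other WT lines (gap over range 0.893). WT34 carries b2, and the b2 lines KO15 and KO25 were also low, at 27.6 and 25.9 CPM. WT12, also b2, had 31.6 CPM. *Vps26a* had 69.1 CPM in WT34, against 78.3 to 79.9 CPM in the other WT lines (0.850). *Ddx50* had 58.1 CPM in KO15, against 63.1 to 64.1 CPM in the other KO lines (0.835).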

How the results depend on the processing

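No paired analysis was possible because the sources used here do not say which KO and WT lines are littermates, and the lines share no replicate number. The column suffix was used as a block instead. Without it edgeR called 0 of the 10 genes, 0 of the window genes and 0 list genes between KO and WT. With the suffix block it called 1 of the 10 genes (*Sgpl1*) and 2 of 40 window genes (*Sgpl1* and *Nodal*), against 0.162% of all genes. Without a filter on low counts it called 1 of the 10 and 1 window gene (background 0.0228%). DESeq2 called 2 of the 10, 3 of 59 window genes and 1 list gene (background 0.376%). DESeq2 with the block, added after seeing the data, called 3 of the 10, 5 of 40 window genes and 1 list gene (background 1.68%). The 10 genes and the lists were chosen with results of this contrast known, so nothing is read from these counts against their backgrounds. Without the 10 genes the window calls were 1 of 30 with the block, 1 of 49 with DESeq2 and 2 of 30 with both. In b1 alone 1 list gene was called, and leaving out each line gave 0 to 1 list genes, the call being *Col5a1* without WT12. Genes called between b2 and b1 numbered 2 of 10, and 1 without KO9 to 3 without WT12. Over all genes edgeR called 7 between KO and WT, 28 with the block and 19 in b1 alone, DESeq2 96 and, with the block, 293. *Sgpl1* kept a positive log2 fold change in each of 20 alternatives, between 0.67 and 0.90, and so did *Dna2*, between 0.23 and 0.40. *Adamts14* did in 18, between 0.20 with limma on log2(TPM + 1) without a filter, a scale that understates differences of low genes, and 0.79. Depth limits *Adamts14* most, at 67.4 to 142 counts. *Tet1* itself kept a negative log2 fold change in each of 20 alternatives, between −4.25 and −1.57, the smallest in size with limma on log2(TPM + 1). Its adjusted p was not below 0.05 in all of them, so a missing call in the weaker fits says little.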
